A study of Mus musculus with 12 samples.

Results

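Gsg1l, Chst8, Inpp4b, Scn3a and Xkr4 are 5 genes that were picked because their counts in lung fibroblast nuclei were low in bleomycin-challenged, vehicle-treated mice. They are 5 of the 31053 genes listed in the count matrices, and all 5 were found by symbol. They were chosen by their summed UMIs in fibroblasts of the Bleo_Vehicle libraries, with no numeric threshold, so the Bleo_Vehicle fibroblast values given here are a description and carry no test. The study asked whether blocking EphB4, a receptor tyrosine kinase, lessens lung fibrosis. Wild-type C57BL/6J mice, young adults by the study's methods, were instilled intratracheally with bleomycin, a drug that injures the lung, or with PBS. Several days later they received oral NVP-BHG712, an EphB4 inhibitor, or its N-methyl-2-pyrrolidone and polyethylene glycol vehicle for several days. Frozen lungs were taken for single-nucleus RNA sequencing, and each mouse gave 1 library. PBS_Vehicle, PBS_NVP-BHG712, Bleo_Vehicle and Bleo_NVP-BHG712 each hold 3 mice. Every animal was therefore instilled and then dosed orally. The PBS groups are the controls for injury with this handling matched, and no group was left unhandled.

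The 5 genes belong to different families. Gsg1l encodes an auxiliary subunit of AMPA-type glutamate receptors. Chst8 encodes a sulfotransferase of the Golgi that adds sulfate to terminal N-acetylgalactosamine on glycoproteins. Inpp4b encodes a phosphatase that removes the 4-phosphate from phosphatidylinositol 3,4-bisphosphate, a lipid made downstream of PI3-kinase. Scn3a encodes the pore-forming subunit of a voltage-gated sodium channel, and Xkr4 encodes a member of the XK-related family of phospholipid scramblases. Most are studied in neurons, endocrine tissue or tumors rather than in lung mesenchyme. In the lung, alveolar fibroblasts lie in the walls between air sacs and support the epithelium, while fibrotic fibroblasts appear after injury and deposit collagen.

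All 5 genes are long, and nuclear RNA sequencing reads unspliced transcripts across their introns. On GRCm38 with GENCODE M21, Gsg1l (ENSMUSG00000046182) lies at chr7:125878420-126082411 on the minus strand, and Chst8 (ENSMUSG00000060402) at chr7:34674468-34812711 on the minus strand. Inpp4b (ENSMUSG00000037940) lies at chr8:81342556-82127914 on the plus strand. Scn3a (ENSMUSG00000057182) lies at chr2:65457118-65567627 and Xkr4 (ENSMUSG00000051951) at chr1:3205901-3671498, both on the minus strand. They span 204 kb, 138 kb, 785 kb, 111 kb and 466 kb in the order named, and exons cover between 1.31% and 11.3% of each span. The antisense genes Gm13595 within Scn3a and Gm1992 within Xkr4 were the overlapping genes listed in the matrices, with 6 and 51 UMIs against 21876 for Scn3a and 14427 for Xkr4. Over all barcodes Gsg1l had 1245 UMIs, Chst8 4846 and Inpp4b 48047.

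RefSeq promoter windows (GRCm38.p6) were matched for Chst8 and Inpp4b alone, and both are shown to give the sequence before their start sites. The 250 bases before the start site are printed 5′ to 3′ on the gene's strand, with capitals marking the GC box GGGCGG on either strand.
Chst8 (chr7:34812712-34812961, minus strand): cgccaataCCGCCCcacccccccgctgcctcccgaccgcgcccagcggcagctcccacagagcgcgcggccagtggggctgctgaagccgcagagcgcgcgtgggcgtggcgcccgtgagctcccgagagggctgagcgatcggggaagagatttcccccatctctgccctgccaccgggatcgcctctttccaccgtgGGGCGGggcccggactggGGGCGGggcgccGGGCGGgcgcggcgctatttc
Inpp4b (chr8:81342312-81342561, plus strand): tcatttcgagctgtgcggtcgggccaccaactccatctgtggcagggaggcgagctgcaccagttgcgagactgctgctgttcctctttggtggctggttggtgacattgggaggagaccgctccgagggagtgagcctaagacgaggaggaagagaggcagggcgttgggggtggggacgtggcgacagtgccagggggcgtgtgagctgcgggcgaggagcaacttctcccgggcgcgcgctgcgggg
The Chst8 window was 75.6% G or C with 32 CpG dinucleotides and 4 GC boxes. The Inpp4b window was 66.0% G or C with 19 CpG dinucleotides and had no match to GGGCGG. Over all 27025 promoter windows the median was 52.0% G or C and 6 CpG dinucleotides, and 32.9% held at least 1 GC box. The CCAAT box was matched once in each window and occurs in 34.5% of all windows. The TATA box TATAAA, the E-boxes spelled CACGTG or CAGCTG, the AP-1 motif TGANTCA, the TEAD motif CATTCC and the nuclear receptor half-site AGGTCA were searched on both strands. They had no match in either window and each occurred in 6.05% to 13.8% of all windows. Gsg1l, Scn3a and Xkr4 were not in the promoter table.

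Of 49163 barcodes, 44611 were used and 9896 fell in fibroblast-like clusters, which were named from marker genes. Library totals ranged from 3556084 to 61947690 UMIs, and fibroblast sums from 873284 to 9007674 UMIs. The Bleo_Vehicle libraries stood apart in measures that do not use the 5 genes. Their median share of mitochondrial UMIs was 0.668% to 2.56%, against at most 0.0496% in the other 9 libraries. Malat1, a nuclear RNA, took 6.12% to 8.24% of their fibroblast UMIs against 4.42% to 5.52% elsewhere. Haemoglobin genes reached 24.2 to 245 CPM (UMIs of a gene scaled to a common library total) in Bleo_Vehicle fibroblasts and 118 and 120 CPM in the 2 PBS libraries of run 1, against at most 2.31 CPM in the other 7. The labels give Bleo_Vehicle batches 6, 6 and 7 and the other groups runs 1 to 4, so no run or batch holds Bleo_Vehicle with another group, and batch and group cannot be told apart. Among nuclei used, 272 of 44339 distinct barcodes occurred in more than 1 library. The fibroblast marker list (10 genes, all detected) summed to 2897 to 3891 CPM in Bleo_Vehicle fibroblasts and 3498 to 4698 CPM elsewhere.

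In fibroblasts the Bleo_Vehicle libraries lay below every other library for all 5 genes. This pattern is the one that chose the genes, and 4.73% of the 10554 fibroblast genes tested show it. CPM values here are TMM-scaled, and libraries are given in the order of replicates 1, 2 and 3. Gsg1l was at 17.2, 57.4 and 64.6 CPM in PBS_Vehicle, 22.5, 57.0 and 55.6 CPM in PBS_NVP-BHG712, 0, 1.83 and 6.05 CPM in Bleo_Vehicle and 57.0, 61.1 and 57.2 CPM in Bleo_NVP-BHG712. It was the sparsest of the 5, with 0, 6 and 56 UMIs in the Bleo_Vehicle fibroblasts against 57 to 176 in each of the other libraries. Bleo_Vehicle was 17.7-fold below PBS_Vehicle by group mean CPM, while replicate 1 of both PBS groups sat well under its companions.

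Chst8, the sulfotransferase, had 72.4, 146 and 158 CPM in PBS_Vehicle, 77.7, 163 and 124 CPM in PBS_NVP-BHG712, 19.4, 28.7 and 33.8 CPM in Bleo_Vehicle and 177, 152 and 151 CPM in Bleo_NVP-BHG712. Its Bleo_Vehicle mean was 27.3 ± 7.29 CPM (SD, n = 3) against 125 ± 46.2 CPM in PBS_Vehicle. Again the 2 run 1 libraries were the lowest outside Bleo_Vehicle.

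Inpp4b, the lipid phosphatase, had 366, 1247 and 1366 CPM in PBS_Vehicle, 331, 1082 and 1138 CPM in PBS_NVP-BHG712, 77.7, 276 and 235 CPM in Bleo_Vehicle and 1308, 1319 and 1246 CPM in Bleo_NVP-BHG712. The gap between Bleo_Vehicle and the run 1 libraries was narrow, 276 against 331 CPM at its closest. The remaining 7 libraries lay between 1082 and 1366 CPM, and Bleo_NVP-BHG712 had the smallest spread, with a mean of 1291 ± 39.3 CPM (SD, n = 3).

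Scn3a, the sodium channel, had 589, 509 and 660 CPM in PBS_Vehicle, 587, 561 and 682 CPM in PBS_NVP-BHG712, 68.6, 98.8 and 213 CPM in Bleo_Vehicle and 704, 544 and 726 CPM in Bleo_NVP-BHG712. No library outside Bleo_Vehicle stood apart for this gene, and the run 1 libraries fell among the others. Xkr4, the scramblase, had 259, 404 and 421 CPM in PBS_Vehicle, 236, 307 and 348 CPM in PBS_NVP-BHG712, 84.6, 188 and 217 CPM in Bleo_Vehicle and 288, 315 and 332 CPM in Bleo_NVP-BHG712. It had the smallest separation of the 5, with 217 CPM in the highest Bleo_Vehicle library and 236 CPM in the lowest of the rest.

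**Figure D1:**
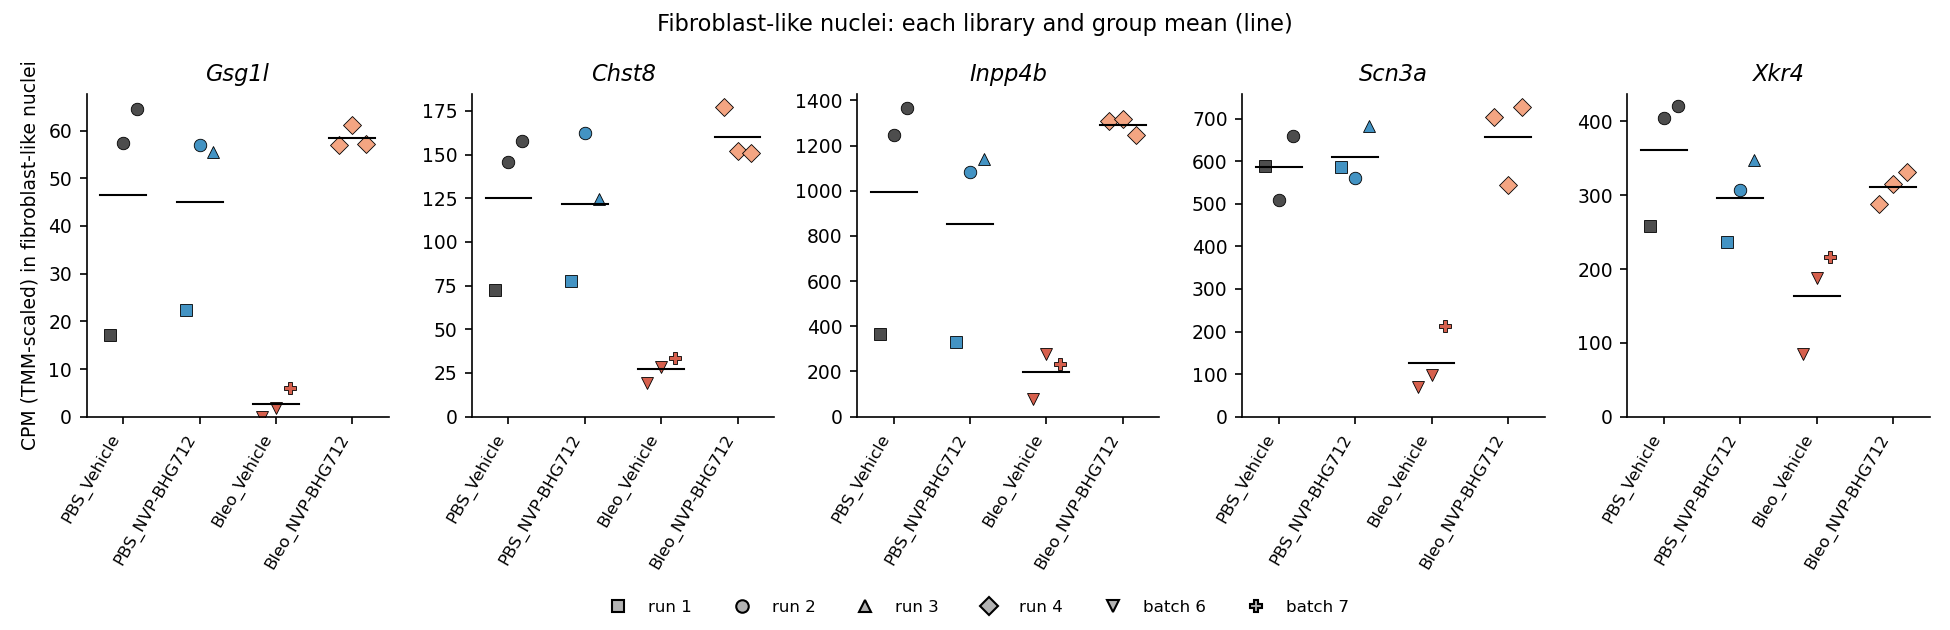
TMM-scaled CPM of each gene in fibroblast-like nuclei (y axis, a separate scale per gene) for each library in the 4 groups (x axis), with a line at the group mean and the symbol giving the run or batch label. All 3 Bleo_Vehicle libraries lie below the other 9 for every gene, and the run 1 squares lie below the other PBS libraries for Gsg1l, Chst8, Inpp4b and Xkr4 but not for Scn3a.

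On the log2 scale, the Bleo_Vehicle minus PBS_Vehicle differences were -3.50 for Gsg1l, -2.11 for Chst8, -2.31 for Inpp4b, -2.17 for Scn3a and -1.11 for Xkr4. The Bleo_NVP-BHG712 minus Bleo_Vehicle differences were 3.89, 2.47, 2.69, 2.34 and 0.91 in the same order. Both sets share the Bleo_Vehicle libraries that chose the genes. For scale, 1.12% of fibroblast genes were called lower in the first contrast and 2.55% were called higher in the second, and groups did not overlap in those directions for 9.55% and 13.5%. Bleo_Vehicle 1 was the lowest library for Gsg1l, Chst8, Inpp4b, Scn3a and Xkr4. It also had the lowest alveolar-like share of fibroblasts, at 10.7% against 30.1% and 41.2% in Bleo_Vehicle 2 and 3 and 37.9% to 46.2% in the other 9 libraries. Its fibroblast sum was the smallest, at 873284 UMIs, and its median mitochondrial share the highest, at 2.56%. Within alveolar-like nuclei Bleo_Vehicle 1 was the lowest for Gsg1l, Scn3a and Xkr4 but not for Chst8 or Inpp4b. That order rests on few UMIs. All 497 fibroblasts of Bleo_Vehicle 1 held 0 UMIs of Gsg1l, 17 of Chst8, 68 of Inpp4b, 60 of Scn3a and 74 of Xkr4. Without the 2 run 1 libraries the Bleo_Vehicle minus PBS_Vehicle differences were -3.95, -2.42, -2.72, -2.18 and -1.32.

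The comparisons that leave Bleo_Vehicle out could be tested. In PBS-instilled mice NVP-BHG712 was not followed by a detectable difference in any of the 5 genes. PBS_NVP-BHG712 minus PBS_Vehicle was -0.03 (SE 0.54) for Gsg1l, -0.04 (SE 0.30) for Chst8, -0.22 (SE 0.56) for Inpp4b, 0.06 (SE 0.30) for Scn3a and -0.28 (SE 0.28) for Xkr4 on the log2 scale. Adjusted p by the edgeR quasi-likelihood test was 1.00 for each, and 0 of 5 were called against a background of 0 of 10554 genes (0%), with 41 genes at an unadjusted p under 0.05. Within run 1 (1 library against 1) the Inpp4b difference was -0.14 and within run 2 (1 against 2) it was -0.27. In the same order the Xkr4 differences were -0.13 and -0.43, and the Gsg1l differences were 0.35 and -0.09. Xkr4 and Inpp4b were lower with NVP-BHG712 in all 3 pairs of same-numbered libraries, and with the replicate number as a block their differences were -0.27 and -0.21 with an edgeR adjusted p of 1.00. The main fit did not pair the libraries, so its standard errors include any gap between run 1 and the other libraries. With standard errors of this size the test does not show that the groups were alike.

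In NVP-BHG712-treated mice, fibroblasts of bleomycin-instilled lungs also did not differ detectably from those of PBS-instilled lungs. Bleo_NVP-BHG712 minus PBS_NVP-BHG712 was 0.42 (SE 0.54) for Gsg1l, 0.40 (SE 0.30) for Chst8, 0.61 (SE 0.56) for Inpp4b, 0.11 (SE 0.30) for Scn3a and 0.07 (SE 0.28) for Xkr4, with an edgeR adjusted p of 0.999 for each. None of the 5 was called, against 0% of 10554 genes, with 333 genes at an unadjusted p under 0.05. For Gsg1l and Inpp4b the 3 Bleo_NVP-BHG712 libraries lay above all 3 PBS_NVP-BHG712 libraries, a separation in this direction seen in 4.04% of genes. Without the run 1 libraries those differences were 0.06 for Gsg1l and 0.22 for Inpp4b, and that of Xkr4 was -0.07. DESeq2 on the same sums called none of the 5 in either comparison. Run 4 holds only Bleo_NVP-BHG712, so run and group cannot be told apart here.

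**Figure D2:**
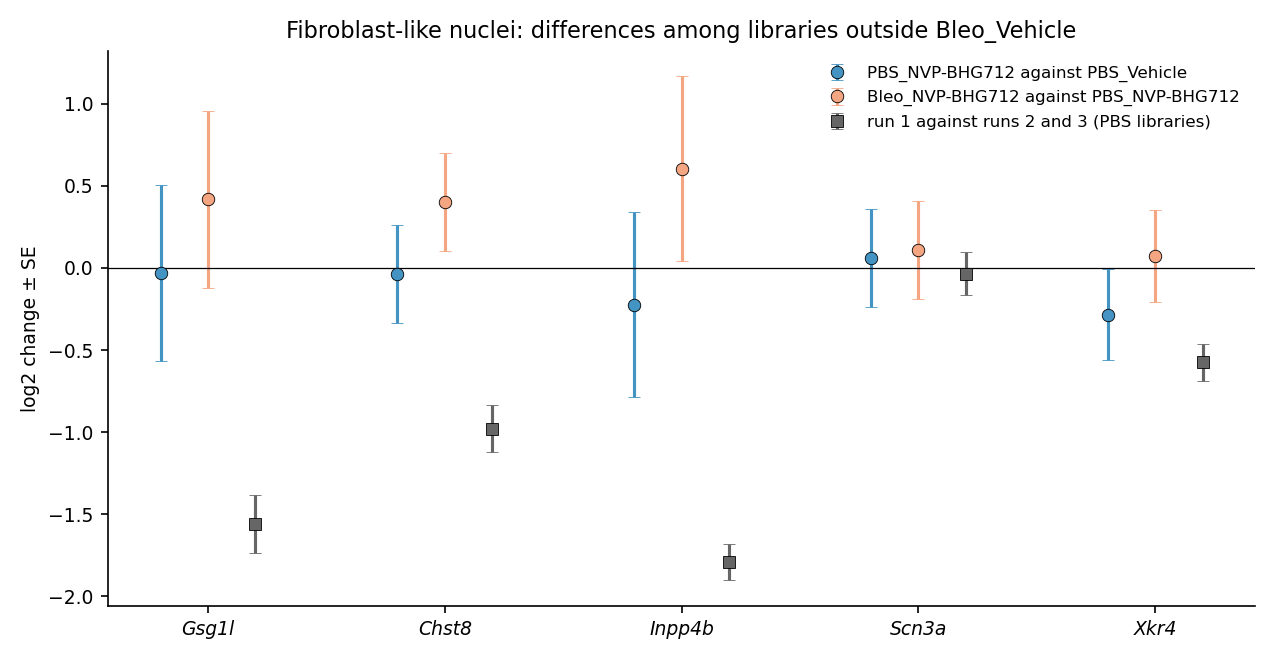
Log2 differences (y axis, with SE bars) of the 5 genes (x axis) in fibroblast-like nuclei for the comparisons that leave Bleo_Vehicle out. The 2 treatment comparisons lie within about 1 SE of 0 for most genes, while the run 1 libraries lie between 0.57 and 1.79 below runs 2 and 3 for Xkr4, Chst8, Gsg1l and Inpp4b.

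For 4 of the 5 genes levels were lower in the run 1 libraries than in those of runs 2 and 3, which hold different mice, among the PBS-instilled animals. This comparison was chosen after the library values were seen, so its p-values are descriptive. It set the 2 libraries of run 1 (1 of each treatment) against the 4 of runs 2 and 3 with treatment in the fit. Run 1 is a single run, so the standard errors measure spread among libraries and not between runs. Inpp4b averaged 352 CPM in run 1 and 1222 CPM in the others, a log2 difference of -1.79 (SE 0.11, edgeR adjusted p = 4.52e-05). Gsg1l averaged 20.01 and 59.3 CPM, a difference of -1.56 (SE 0.18, edgeR adjusted p = 0.00111). Chst8 averaged 75.7 and 149 CPM, -0.98 (SE 0.14, edgeR adjusted p = 0.00457), and Xkr4 249 and 374 CPM, -0.57 (SE 0.11, edgeR adjusted p = 0.0175). Scn3a averaged 593 and 609 CPM, a difference of -0.04 (SE 0.13, edgeR adjusted p = 0.896). Across all 10457 genes tested, 3.34% were called lower in run 1 and 5.78% in either direction.

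The run difference was seen in fibroblasts and was not detected in the epithelial nuclei of the same libraries. In alveolar type II-like nuclei Inpp4b averaged 794 CPM in run 1 and 713 CPM in runs 2 and 3 (log2 difference 0.16, SE 0.12, edgeR adjusted p = 0.498, background 4.62% called). In alveolar type I-like nuclei the edgeR adjusted p was 0.531 for Inpp4b, 0.194 for Chst8 and 0.418 for Xkr4, where 13.5% of genes were called. The difference between cell classes was not itself tested. Leaving out PBS_Vehicle 1 left 1 of the 5 genes called (Inpp4b, edgeR adjusted p = 0.0216) and leaving out PBS_NVP-BHG712 1 left 2 (Inpp4b 0.0150 and Gsg1l 0.0418), with 18 and 17 genes called in all. Each of those fits leaves 1 library in run 1, which is assumed to vary like the libraries of runs 2 and 3, and the Inpp4b difference was -1.75 and -1.84.

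Fewer fibroblast nuclei carried a UMI of each gene in Bleo_Vehicle when every nucleus was thinned to 500 UMIs, which no fibroblast nucleus fell short of. For Inpp4b 7.09% ± 4.06 of Bleo_Vehicle fibroblasts had a UMI, against 27.5% ± 10.5 in PBS_Vehicle, 23.6% ± 8.79 in PBS_NVP-BHG712 and 31.7% ± 2.76 in Bleo_NVP-BHG712 (SD, n = 3). For Scn3a the shares were 5.18%, 21.4%, 22.8% and 21.6%, and for Xkr4 6.00%, 12.2%, 10.2% and 10.5%, in the same order. Chst8 had shares of 1.22%, 5.71%, 4.05% and 4.70%. Gsg1l had shares of 0.139%, 1.59%, 1.84% and 2.89%, and Bleo_Vehicle 1 had 0 of 497 nuclei, which allows a share of up to 0.604% (3 counts, counting error only). Unthinned, Inpp4b was seen in 22.4% of Bleo_Vehicle and 61.2% of PBS_Vehicle fibroblasts.

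Free RNA can place a UMI in nuclei that do not express a gene, and alveolar macrophage-like nuclei, pooled by group, gave a level for that. The summed fibroblast markers in these nuclei were at 5.62% of their fibroblast level in Bleo_Vehicle and 1.15% to 2.05% in the other groups. The level therefore need not be the same in each group. At 500 UMIs their shares in Bleo_Vehicle were 0% for Gsg1l (0 of 1842 nuclei), 0.163% for Chst8, 1.41% for Inpp4b, 0.109% for Scn3a and 0.543% for Xkr4, with a median depth of 1670 UMIs against 2213 UMIs in fibroblasts. Pooled fibroblasts of Bleo_Vehicle had 0.191% for Gsg1l, with a 95% exact interval of 0.0824% to 0.376%, and 8.56% for Inpp4b, with an interval of 7.73% to 9.45%. These intervals are over nuclei pooled from 3 libraries. For Gsg1l, 0 of 1842 macrophage nuclei allow a share of up to 0.163%, so the thinned counts are too few to set the shares apart. With all UMIs, Gsg1l had 62 UMIs in Bleo_Vehicle fibroblasts (4.73 pooled CPM) and 1 UMI in the macrophages (0.225 pooled CPM), and its unthinned shares were 1.24% and 0.0543%. The Inpp4b share was above the macrophage share at both depths, with unthinned shares of 27.3% and 4.72%. After thinning, 1.98% of Bleo_Vehicle fibroblasts carried UMIs of 2 or more of the 5 genes, against 12.6% in PBS_Vehicle, 11.1% in PBS_NVP-BHG712 and 16.7% in Bleo_NVP-BHG712.

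Fibroblasts were clustered again without the 5 genes and without the genes called between groups, which gave 7 subclusters. The 5 genes were highest in the alveolar-like subcluster, which was led by Tmem117, Cntn1 and Fat3 and passed 11 of the alveolar fibroblast markers. Over the 9 libraries outside Bleo_Vehicle its mean level was 61.8 ± 19.7 CPM for Gsg1l, 166 ± 36.1 CPM for Chst8, 1272 ± 444 CPM for Inpp4b, 716 ± 109 CPM for Scn3a and 348 ± 66.6 CPM for Xkr4 (SD, n = 9). Adventitial-like and peribronchial-like nuclei, which sheathe vessels and airways, had 0 UMIs of Gsg1l in 390 and 396 nuclei. Chst8 had 4 UMIs in each of them, and Inpp4b averaged 23.1 CPM in adventitial-like nuclei (n = 4 libraries) and 44.3 ± 103 CPM in peribronchial-like nuclei (n = 7), whose highest library had 276 CPM. Xkr4 was the gene least restricted to the alveolar-like state, at 128 ± 50.0 CPM in adventitial-like nuclei and 335 ± 87.7 CPM in subcluster 2. Subcluster 2 was led by Tmem163, Ppp1r3a and Shisa9, and subcluster 1 by haemoglobin genes with a median of 1437 UMIs. Subcluster 6 (394 nuclei) was led by Hc, Ank3 and Col4a3 and also held Rtkn2, a type I marker, among its top genes. None of these 3 could be named.

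Within the alveolar-like subcluster, which is part of the fibroblasts that chose the genes, the 5 genes were also lowest in Bleo_Vehicle. Inpp4b was at 324, 453 and 323 CPM there, against 496 to 1637 CPM in the other 9 libraries, of which the run 1 libraries had 509 and 496 CPM. Scn3a was at 145, 147 and 272 CPM against 556 to 834 CPM, and Chst8 at 59.7, 31.8 and 50.5 CPM against 100.4 to 215 CPM. Neither range overlapped. Gsg1l was at 0, 0.78 and 9.65 CPM against 23.1 to 78.6 CPM, and Xkr4 at 213, 233 and 232 CPM against 281 to 450 CPM. In subclusters 1 and 2, parts of the same fibroblasts, Bleo_Vehicle was below the other libraries for each gene but Xkr4, which overlapped. The share of all genes with such a separation within a subcluster is not given here, so these values are a description. The fibrotic-like subcluster, whose leading genes include Inhba and Thbs1, held 11.5%, 4.62% and 4.73% of Bleo_Vehicle fibroblasts and 2.53% to 5% of the others. The list of 12 alveolar fibroblast markers summed to 5513 to 12777 CPM in Bleo_Vehicle fibroblasts and 13680 to 14135 CPM elsewhere, and 3 of the 12 (Npnt, Itga8 and Fgfr4) were called lower in Bleo_Vehicle than in PBS_Vehicle, beside 1.12% of all fibroblast genes. The median log2 difference over the 12 markers was -1.16 against 0.00 over all genes. The 12 fibrotic fibroblast markers summed to 527 to 4446 CPM in Bleo_Vehicle fibroblasts and 206 to 387 CPM elsewhere. Marker lists of other cell types moved both ways there. The 8 type I markers were at 293 to 624 CPM against 128 to 278 CPM, and the 8 type II markers at 294 to 1267 CPM against 105 to 323 CPM, which overlapped. The 8 mesothelial markers, which mark the other leading class of Xkr4, were at 71.0 to 127 CPM against 139 to 236 CPM. The 8 Schwann cell or neuron markers (6 of them detected) were at 245 to 677 CPM against 693 to 801 CPM. Lists for leading classes of Scn3a and Inpp4b went the other way. The 8 lymphatic endothelium markers were at 43.3 to 59.5 CPM against 11.3 to 32.7 CPM. The 10 T or NK lymphocyte markers (9 of them detected) were at 7.44 to 22.9 CPM against 1.20 to 6.87 CPM. The part of these shifts in the levels of the 5 genes was not tested.

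**Figure D3:**
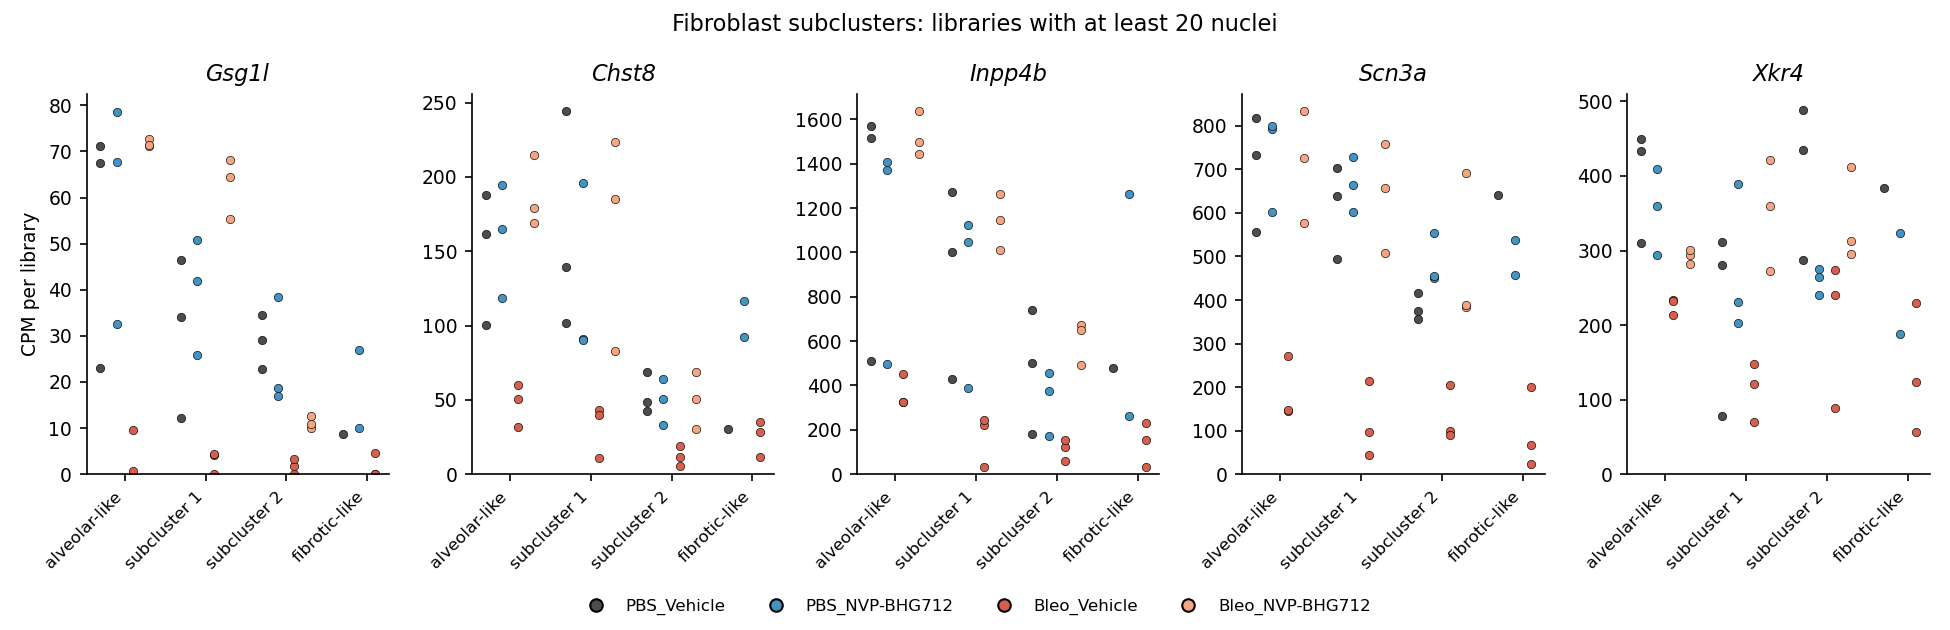
CPM of each gene (y axis, a separate scale per gene) in 4 fibroblast subclusters (x axis), 1 point per library with at least 20 nuclei, colored by group. Bleo_Vehicle points lie lowest in the alveolar-like subcluster for all 5 genes, and their separation from the other groups is smallest for Xkr4.

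Across the 18 named cell classes, fibroblasts were the leading site of Gsg1l and Chst8. Over the 9 libraries outside Bleo_Vehicle, Gsg1l averaged 48.4 ± 15.4 CPM in fibroblasts (SD, n = 9), and the next class, mesothelial-like nuclei, had 6.26 ± 12.6 CPM (n = 5). Chst8 averaged 132 ± 30.8 CPM in fibroblasts, followed by 17.8 CPM in the single library with enough smooth muscle-like nuclei and 14.03 ± 3.95 CPM in alveolar type I-like nuclei (n = 9), where every library held it.  Levels in this paragraph are CPM without TMM scaling, and classes needed at least 20 nuclei in a library.

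Scn3a and Xkr4 each shared their leading place with 1 other class. Scn3a averaged 610 ± 79.3 CPM in fibroblasts and 829 ± 175 CPM in lymphatic endothelium-like nuclei (n = 4), whose ranges of 479 to 699 and 710 to 1086 CPM did not overlap, and the next class, T or NK lymphocyte-like nuclei, had 54.6 ± 95.2 CPM. These 4 lymphatic libraries are all from PBS-instilled mice. In Bleo_Vehicle the lymphatic levels were 72.0, 130 and 256 CPM, and the Bleo_NVP-BHG712 libraries, each under 20 nuclei, had 3 UMIs in 24 nuclei together (102 pooled CPM). Xkr4 averaged 317 ± 49.6 CPM in fibroblasts and 422 ± 293 CPM in mesothelial-like nuclei (n = 5), which overlapped, and lymphatic endothelium-like nuclei followed at 82.8 ± 45.2 CPM. Its mesothelial levels in Bleo_Vehicle were 821, 391 and 367 CPM, within the range of 139 to 867 CPM in the other libraries.

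Inpp4b was the broadest of the 5. T or NK lymphocyte-like nuclei had 3603 ± 2185 CPM (n = 5), with every library above the fibroblast libraries at 1010 ± 365 CPM (n = 9). In Bleo_Vehicle the T or NK level was 1030 ± 891 CPM (SD, n = 3). Its range of 375 to 2045 CPM lay below the lowest other library, at 2362 CPM. That class was not tested, and the share of all its genes with this separation is not given. B lymphocyte-like nuclei had 1671 ± 976 CPM (n = 4) and overlapped fibroblasts. Lymphatic endothelium-like nuclei had 899 ± 325 CPM (n = 4), whose SD overlapped that of fibroblasts, and alveolar type II-like nuclei 711 ± 73.6 CPM (n = 9). TMM-scaled fibroblast levels were above type II of the same library in every library outside run 1 and Bleo_Vehicle. In Bleo_NVP-BHG712 they were 1246 to 1319 against 700 to 747 CPM. In run 1 they were below, at 366 against 765 CPM in PBS_Vehicle 1 and 331 against 788 CPM in PBS_NVP-BHG712 1. This was not tested. Alveolar type I-like nuclei were last of the 18 classes at 13.1 ± 3.38 CPM (n = 9), with no overlap with type II.

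**Figure D4:**
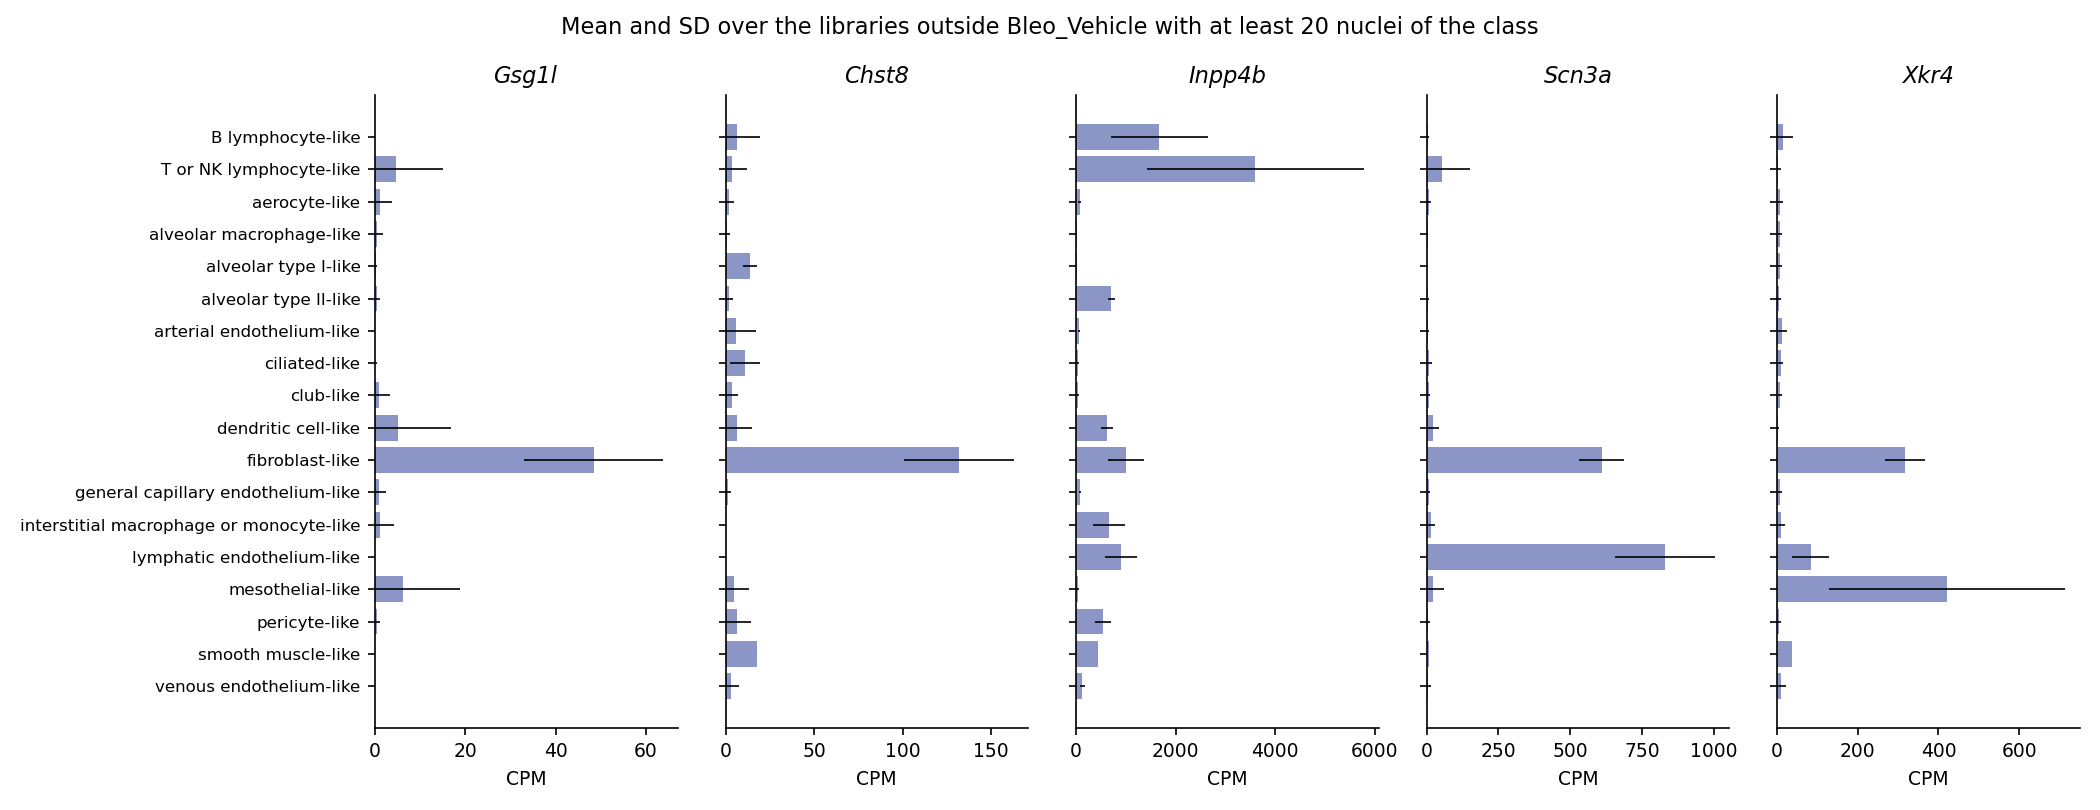
Mean CPM (x axis, a separate scale per gene) in each cell class (y axis) over the libraries outside Bleo_Vehicle with at least 20 nuclei of the class, with SD bars where more than 1 library qualified. Gsg1l and Chst8 are highest in fibroblast-like nuclei, Scn3a and Xkr4 are high in 1 more class each, and Inpp4b is spread over lymphoid, endothelial, epithelial and mesenchymal classes.

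Outside fibroblasts, 10 classes had enough libraries for a test, and 11 pairs of a gene and a class passed the count filter. Inpp4b made up 9 of the 11, Chst8 and Xkr4 passed in alveolar type I-like nuclei, and Gsg1l and Scn3a passed in none. For Bleo_Vehicle against PBS_Vehicle 1 of 11 pairs was called, beside 3.31% of all gene and class pairs, and for Bleo_NVP-BHG712 against Bleo_Vehicle 2 of 11 were called, beside 3.45%. None of the 11 was called for PBS_NVP-BHG712 against PBS_Vehicle or Bleo_NVP-BHG712 against PBS_NVP-BHG712. These nuclei come from the same libraries and batches that chose the genes in fibroblasts.

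The called pairs were Inpp4b in the 2 alveolar epithelial classes, and their directions were opposite. Alveolar type II-like nuclei, the surfactant-making cells, had 765, 547 and 657 CPM in PBS_Vehicle, 788, 767 and 705 CPM in PBS_NVP-BHG712, 62.6, 163 and 312 CPM in Bleo_Vehicle and 720, 700 and 747 CPM in Bleo_NVP-BHG712. The Bleo_Vehicle libraries lay below all the others, and the share of all type II genes with this separation is not given here. Inpp4b fell by 1.66 on the log2 scale in Bleo_Vehicle against PBS_Vehicle (SE 0.32, edgeR adjusted p = 0.00993, 4.85% of type II genes called) and was 1.82 higher in Bleo_NVP-BHG712 than in Bleo_Vehicle (SE 0.32, edgeR adjusted p = 0.00550, 5.95% called). Without Bleo_Vehicle 2 the first of these had an edgeR adjusted p of 0.0600.

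Alveolar type I-like nuclei, the flat gas-exchange cells, had low Inpp4b throughout. The levels were 17.1, 11.9 and 12.7 CPM in PBS_Vehicle, 17.2, 14.7 and 13.6 CPM in PBS_NVP-BHG712, 108, 23.3 and 26.4 CPM in Bleo_Vehicle and 14.5, 8.28 and 7.69 CPM in Bleo_NVP-BHG712. Here the Bleo_Vehicle libraries lay above all the others, with Bleo_Vehicle 1 far above its companions. The share of all type I genes with this separation is likewise not given. Bleo_NVP-BHG712 was lower than Bleo_Vehicle by a log2 difference of -2.33 (SE 0.57, edgeR adjusted p = 0.0359, 5.13% of type I genes called), and Bleo_Vehicle exceeded PBS_Vehicle by 1.86 (SE 0.53, edgeR adjusted p = 0.0625). The call was lost without any 1 of PBS_Vehicle 2 or 3, PBS_NVP-BHG712 1, 2 or 3 and Bleo_NVP-BHG712 1, 2 or 3, with edgeR adjusted p between 0.0509 and 0.154, and with stricter nuclei it was 0.0653. Alveolar macrophage-like nuclei, which gave the free RNA level above, averaged 9.37, 12.9, 30.4 and 17.9 CPM of Inpp4b in PBS_Vehicle, PBS_NVP-BHG712, Bleo_Vehicle and Bleo_NVP-BHG712. Outside Bleo_Vehicle 1 the type I levels were of similar size, and the part of free RNA in them was not tested.

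The opposite directions in the 2 classes did not pass a test of the difference itself. The type II minus type I difference in the Bleo_Vehicle against PBS_Vehicle contrast was -3.12 (SE 0.92, edgeR adjusted p = 0.114), and in Bleo_NVP-BHG712 against Bleo_Vehicle it was 3.75 (SE 1.01, edgeR adjusted p = 0.107). Without Bleo_Vehicle 1 they were -2.15 and 2.78 with edgeR adjusted p of 2.47e-06 and 2.63e-07. Without Bleo_Vehicle 3 the adjusted p were 0.0320 and 0.0288, and without any other single library they lay between 0.139 and 0.343.

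Markers of the 2 classes moved in Bleo_Vehicle too. In type I-like nuclei Sftpc, a surfactant gene of type II cells, was at 69.8 to 600 CPM in Bleo_Vehicle and 23.8 to 67.9 CPM elsewhere, and the list of 8 type II markers summed to 165 to 959 CPM against 124 to 271 CPM. In type II-like nuclei the 8 type II markers summed to 4006 to 11582 CPM in Bleo_Vehicle and 12880 to 15463 CPM elsewhere, and the 8 type I markers to 2696 to 3407 CPM against 1192 to 2188 CPM. The summed fibroblast markers in type II-like nuclei were at 18.4% of their fibroblast level in Bleo_Vehicle and 7.76% to 9.02% in the other groups. In type I-like nuclei they were at 11.8% against 18.5% to 20.1%. The part of these shifts in the Inpp4b results was not tested.

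**Figure D5:**
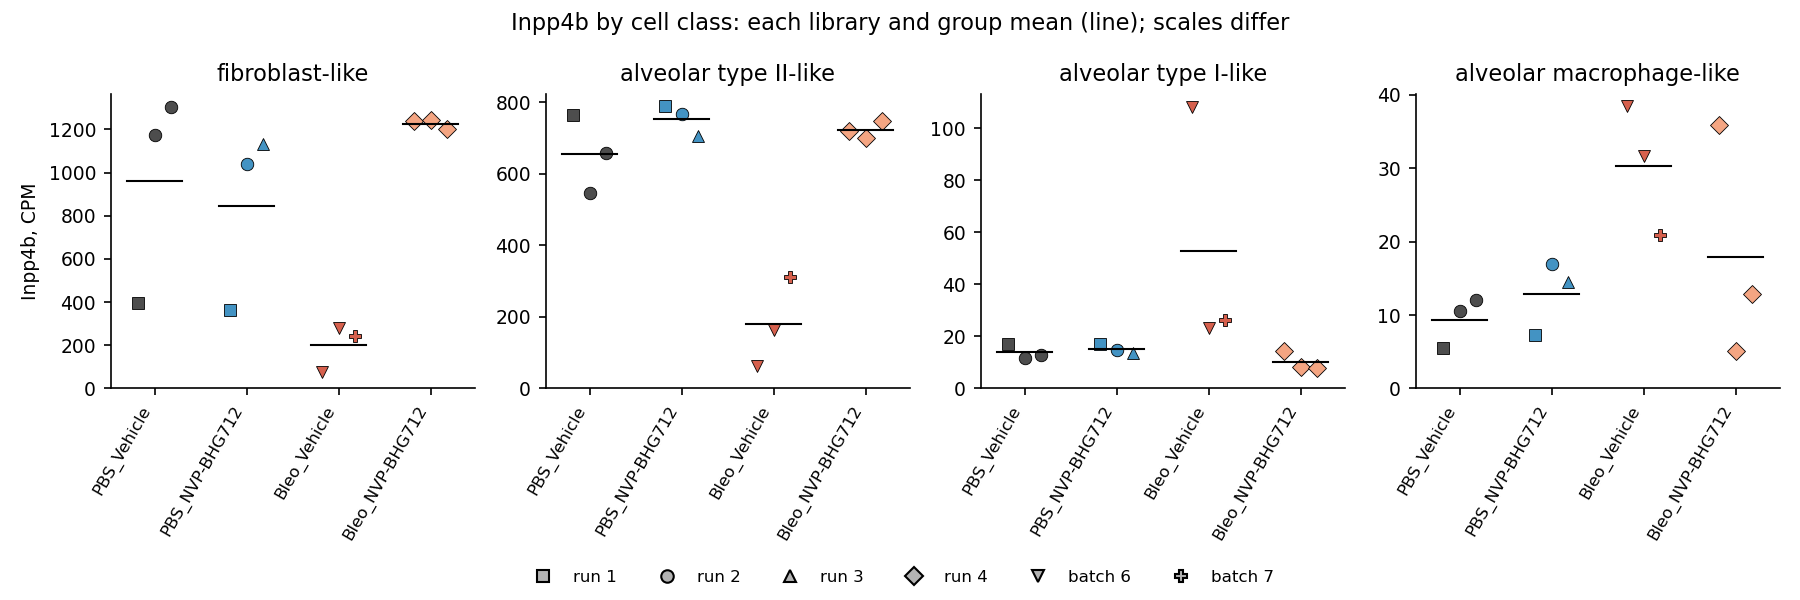
Inpp4b CPM without TMM scaling (y axis, a separate scale per panel) in 4 cell classes for each library in the 4 groups (x axis), with a line at the group mean and the symbol giving the run or batch. Bleo_Vehicle lies lowest in fibroblast-like and type II-like nuclei and highest in type I-like nuclei.

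Several other Inpp4b differences were sizeable but did not pass the threshold. In alveolar macrophage-like nuclei Bleo_Vehicle had 38.5, 31.7 and 20.9 CPM against 5.57, 10.5 and 12.0 CPM in PBS_Vehicle, a log2 difference of 2.04 (SE 0.61, edgeR adjusted p = 0.0624). These nuclei also gave the free RNA level above. Summed fibroblast markers in them were at 5.62% of the fibroblast level in Bleo_Vehicle and 1.15% in PBS_Vehicle. The part of free RNA in this difference was not tested. In general capillary endothelium-like nuclei the difference was 0.87 (SE 0.27, edgeR adjusted p = 0.0776), and in interstitial macrophage or monocyte-like nuclei it was -1.73 (SE 0.54, edgeR adjusted p = 0.334). Ciliated-like nuclei had a difference of -1.94 in Bleo_NVP-BHG712 against Bleo_Vehicle (SE 0.61, edgeR adjusted p = 0.0772). Chst8 in type I-like nuclei differed by 0.56 (SE 0.29) and Xkr4 by 0.33 (SE 0.57) between Bleo_Vehicle and PBS_Vehicle, with edgeR adjusted p of 0.315 and 0.817.

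Other genes of the 5 families were tested in the same fibroblast contrasts. Of 50 family genes tested, with the 5 left out, none was called for PBS_NVP-BHG712 against PBS_Vehicle or Bleo_NVP-BHG712 against PBS_NVP-BHG712. For Bleo_Vehicle against PBS_Vehicle 3 were called higher and 0 lower, beside 3.93% and 1.12% of all fibroblast genes. For Bleo_NVP-BHG712 against Bleo_Vehicle 1 was called higher and 2 lower, beside 2.55% and 4.93%. The list medians in Bleo_Vehicle against PBS_Vehicle lay between -0.33 and 0.14 on the log2 scale, against 0.00 over all genes.

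Among AMPA receptor genes, 4 of 17 were tested. Gria3, a pore subunit, was at 1388 ± 587 CPM in Bleo_Vehicle and 1374 ± 261 CPM in PBS_Vehicle, and Gria1, another, was at 218 ± 133 and 523 ± 98.1 CPM (log2 difference -1.23, SE 0.37, edgeR adjusted p = 0.0758). DESeq2 called Gria1 lower in Bleo_Vehicle, which gave 3 family genes higher and 1 lower. Of the carbohydrate sulfotransferases 8 of 14 were tested, and Chst11, which sulfates chondroitin, was at 200 ± 235 CPM in Bleo_Vehicle and 10.9 ± 1.93 CPM in PBS_Vehicle (4.08, SE 0.87, edgeR adjusted p = 0.0243). Ust, a uronosyl sulfotransferase, had 645 ± 182 and 719 ± 118 CPM, and Chst3 had 65.9 ± 12.1 and 91.6 ± 5.15 CPM, with edgeR adjusted p of 0.794 and 0.166.

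Of the phosphoinositide genes 23 of 27 were tested. Inpp5d, a phosphatase best known in blood cells, was at 30.3 ± 21.2 CPM in Bleo_Vehicle and 3.85 ± 0.979 CPM in PBS_Vehicle (2.77, SE 0.52, edgeR adjusted p = 0.00941), and Pik3cb, a PI3-kinase catalytic subunit, at 17.5 ± 4.79 and 6.48 ± 2.67 CPM (1.29, SE 0.35, edgeR adjusted p = 0.0455). Beside Inpp5d, the 9 interstitial macrophage or monocyte markers summed to 36.3 to 160 CPM in Bleo_Vehicle fibroblasts and 5.04 to 18.5 CPM elsewhere, and their part in it was not tested. Pik3ca was higher in Bleo_NVP-BHG712 than in Bleo_Vehicle by 0.58 (SE 0.16, edgeR adjusted p = 0.0417), while Chst11 and Inpp5d were lower by log2 differences of -4.71 and -3.98 with edgeR adjusted p of 0.0176 and 0.00377. Pik3r1, a PI3-kinase regulatory subunit, was at 639 ± 162 CPM in Bleo_Vehicle and 641 ± 125 CPM in PBS_Vehicle, with an edgeR adjusted p of 1.00.

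Of the sodium channel subunits 2 of 13 passed the filter. Scn7a, a sodium-sensing channel, was at 333 ± 133 CPM in Bleo_Vehicle and 509 ± 36.2 CPM in PBS_Vehicle, and Scn2a at 20.2 ± 5.56 and 22.1 ± 7.72 CPM, with edgeR adjusted p of 0.200 and 0.955. Of the scramblases and flippases 13 of 24 were tested, and Plscr4 was at 274 ± 159 and 426 ± 29.3 CPM and Ano6, a calcium-activated scramblase, at 349 ± 53.4 and 379 ± 15.7 CPM, with edgeR adjusted p of 0.324 and 0.769.

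Likeness of fibroblast profiles was measured over the 12 libraries as the root mean square difference of centred log2 CPM, among 7326 genes of at least 10 CPM. All 12 points share the library effects given above, so this is a description. Nearest to Inpp4b were Dgkb (0.37), Ldb2 (0.37) and Fat3 (0.39), and nearest to Gsg1l were Slc22a3 (0.70), Ldb2 (0.71) and Dgkb (0.78). Chst8 was nearest to Fat3 (0.24), Slc24a3 (0.27) and Pgm5 (0.27), and Scn3a to Ablim3 (0.29), Itga8 (0.33) and Arhgap28 (0.33). Xkr4, whose own profile varied least, was nearest to Dpyd (0.14), Robo1 (0.15) and Ppp4r4 (0.15). Among the 5 genes the closest pair was Chst8 and Inpp4b (0.43) and the farthest Gsg1l and Xkr4 (1.19). Fat3, the nearest neighbor of Chst8, was at 452 ± 115 CPM in Bleo_Vehicle and 1726 ± 782 CPM in PBS_Vehicle.

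All 5 genes fall among the 1963 tested genes longer than 100 kb. Of those long genes, 2.70% were called lower and 8.56% higher in Bleo_Vehicle than in PBS_Vehicle fibroblasts, and their median log2 difference was -0.02. Among genes under 10 kb the shares were 0.823% lower and 4.81% higher.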

How the data were processed

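Nuclei from frozen mouse lungs were sorted on DAPI and sequenced with the 10x 3' v3.1 chemistry. The authors aligned the reads to mm10 and deposited, per library, a matrix of counts, whole UMIs per gene and barcode without normalization. The file headers name Cell Ranger 7.2.0, while the submitters' processing notes name Cell Ranger 7.0 and Seurat 4.4.1. The study also removed free RNA with DecontX and doublets with DoubletFinder; neither was run here, so free RNA remains in these counts.

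Barcodes with 200 to 6000 genes and at most 5% mitochondrial UMIs were kept (47319), and the 2708 with the highest scrublet scores, set at 0.8% per 1000 nuclei, were left out. Nuclei were clustered in scanpy 1.11.5 (2000 variable genes, 30 components, Harmony correction by library, 20 neighbors, Leiden resolution 1) and named from 27 marker lists, needing 3 markers. UMIs were summed per library and class, classes needing 20 nuclei. edgeR 4.0.16 (filterByExpr, TMM, robust quasi-likelihood, two-sided) was fitted over all 12 sums with a mean per group, and p-values were adjusted by Benjamini-Hochberg over all genes tested, with calls under 0.05. DESeq2 1.42.0, RLE scaling, no count filter, stricter nuclei, kept doublets, a replicate or run block and leaving out each library were alternatives. The fits were tested on simulated counts. Intervals are exact and cover counting error only.

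The members and lists were chosen with earlier results of these data known. Genes named were the 5 members, the 2 family genes of highest mean fibroblast CPM in each list and any family gene called (chosen after its values were seen), and the 3 nearest profiles of each member, with predicted genes left out. Mice are separate animals. Between PBS_NVP-BHG712 and PBS_Vehicle, fibroblast deviations of same-numbered libraries correlated at 0.67, 0.42 and 0.47 over 10554 genes. Replicate 1 is run 1 and replicate 2 is run 2 in both groups, while replicate 3 is run 2 in PBS_Vehicle and run 3 in PBS_NVP-BHG712. The replicate block took the numbers to pair the libraries, though the run labels do not do so for replicate 3. The main fit was unpaired. Items withheld for evaluation are not reported here.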

Additional observations from a re-analysis of the deposited data

How the results depend on the processing

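No member was called in fibroblasts under any alternative for PBS_NVP-BHG712 against PBS_Vehicle or Bleo_NVP-BHG712 against PBS_NVP-BHG712. Signs near 0 turned there. For PBS_NVP-BHG712 against PBS_Vehicle, Gsg1l was 0.033 with the replicate block, 0.11 with the run as a block and 0.12 in alveolar-like nuclei. Chst8 was 0.10 and 0.062 under the last 2 and Scn3a -0.035 with the run block. Leaving out 1 library gave -0.48 to 0.33 for Gsg1l, -0.33 to 0.21 for Chst8, -0.62 to 0.16 for Inpp4b and -0.041 to 0.15 for Scn3a. Xkr4 in Bleo_NVP-BHG712 against PBS_NVP-BHG712 was -0.20 in alveolar-like nuclei, -0.068 without run 1 and -0.065 to 0.22 leaving out 1 library. In other classes, the 1 call for Bleo_Vehicle against PBS_Vehicle became 4 with no count filter, 3 with DESeq2 and 2 with the replicate block, and 1 to 4 leaving out 1 library. The 2 calls for Bleo_NVP-BHG712 against Bleo_Vehicle became 1 with stricter nuclei (at least 500 UMIs, at most 1% mitochondrial) and 1 to 3 leaving out 1 library. The 4 calls for run 1 became 1 to 4 leaving out 1 library. Family calls for Bleo_Vehicle against PBS_Vehicle went from 3 (3 higher) to 8 with no filter (7 higher, 1 lower) and 4 with DESeq2 (3 higher, 1 lower), and from 3 (1 higher, 2 lower) to 9 with no filter (2 higher, 7 lower) and 6 with DESeq2 (2 higher, 4 lower) for Bleo_NVP-BHG712 against Bleo_Vehicle. Signs also turned for uncalled values. Inpp4b in aerocyte-like nuclei (Bleo_Vehicle against PBS_Vehicle) was -0.12 with the replicate block and -0.15 to 0.34 leaving out 1 library. Xkr4 in type I-like nuclei was -0.040 with stricter nuclei and -0.080 to 1.37 leaving out 1 library. For Bleo_NVP-BHG712 against Bleo_Vehicle, Inpp4b in club-like nuclei was 0.69 with stricter nuclei and -0.61 to 0.17 leaving out 1 library. In venous endothelium-like nuclei it was 0.0071 with RLE scaling, 0.0094 with no filter, 0.10 with DESeq2, 0.070 with the replicate block and -0.15 to 0.41 leaving out 1 library. Scn3a in run 1 was 0.0073 with no filter and -0.12 to 0.040 leaving out 1 library. The cause of these shifts was not tested. Same-numbered libraries correlated at -0.08, 0.32 and 0.23 for Bleo_NVP-BHG712 against PBS_NVP-BHG712, and at -0.02 to 0.09 for both contrasts with Bleo_Vehicle, so they share only a number there. The replicate block changed no call of a member in fibroblasts. The sets tried after seeing the data were the run 1, type II minus type I and family fits and the omission of run 1. Depth limits Gsg1l, with 0 to 56 UMIs in each Bleo_Vehicle fibroblast sum.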
